A study of Homo sapiens with 40 samples.

Results

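The 10 genes examined here encode cytokines, cell surface proteins and a signalling adaptor that are known to be induced through NF-kappa B. They were TNF, IL6, LIF, IL32 and CSF2 among the secreted factors, CD69, ICAM1, CD83 and TNFRSF9 among the surface proteins, and the adaptor TRAF1. The members were chosen by name with earlier results of these data known. CD69 was selected on its measured rise with topotecan (Tpc) in wild-type (WT) cells. All 10 were found among the 58395 genes of the count table. Of these, 28922 genes had at least 10 counts summed over the 40 libraries and were tested, 9 members among them. CSF2, with 4 counts in all, was not tested. The transcriptome was sequenced in HEK293A cells, an epithelial-like line of human embryonic kidney cells, and in a PARP1-knockout (PARP1-KO) derivative that is 1 clone made with CRISPR/Cas9. Each genotype had 5 treatments with 4 replicates, which gave 10 groups and 40 libraries. The treatments were no treatment, the solvent DMSO at 0.1%, Tpc in DMSO, the TDP1 inhibitor OL9-119 at 5 µM in DMSO, and Tpc + OL9-119, each for 5 to 5.5 h. The Tpc dose was 100 nM for WT and 50 nM for PARP1-KO cells, so that a difference in the Tpc response between the genotypes is also a difference between doses. The labels call the replicates biological and the study's methods call them technical, so the p-values measure only the spread between these samples.

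NF-kappa B is a family of dimeric transcription factors that inhibitor proteins such as NFKBIA hold in the cytoplasm. When the IKK kinase complex marks the inhibitor for degradation, the dimers enter the nucleus and bind kappa B motifs at genes of inflammation, cell adhesion and survival. Besides cytokine receptors, DNA breaks are a known trigger of this pathway, and PARP1 is known to act in it as a cofactor. Tpc stabilises topoisomerase 1 on cleaved DNA, and TDP1 is an enzyme that removes such topoisomerase 1 adducts.

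Total counts ranged from 3455043 to 20379777 per library. PARP1 stood at 737 to 887 counts per 1000000 of the TMM-scaled library size (CPM) in the 20 WT libraries and at 30.4 to 46.6 CPM in the 20 PARP1-KO libraries. The sample titles call the line a knockout while another label calls it a knockdown, and a count over the whole gene does not address the deleted part. The 8 markers of the HEK293 line summed to 1785 to 2677 CPM in all 40 libraries. The lymphocyte and macrophage markers PTPRC, CD3E and LYZ had a median of 0 CPM over the libraries. WT DMSO replicate 3 stood apart for several members. It had the highest CD69 and TNF and the lowest ICAM1 and TRAF1 of the 4 WT DMSO libraries. It also had the fewest genes detected of the 40 libraries after thinning to equal depth (15514). Untreated WT replicate 3 was close, at 15573, and the ranges were 15514 to 20625 in WT and 17950 to 21580 in PARP1-KO libraries. Results of CD69 and TNF against WT DMSO are therefore also given without WT DMSO replicate 3. No edgeR call of another member at the 0.01 threshold depended on that library. Some changes of other members that were not called moved by over 1.5 times. In these bulk samples, fewer cells expressing a gene and less RNA per cell cannot be told apart.

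The 250 bases before the transcription start were taken from the RefSeq promoter table (GRCh38.p14), which held 12 entries for 8 of the 10 members, since some genes have several starts. CD69 and LIF were not matched. The NF-kappa B motif was searched on both strands as GGGRNNYYCC, where R is A or G, Y is C or T and N is any base. Overlapping matches were counted. TGANTCA, the site known for AP-1, was searched as well. The promoters of ICAM1, CD83 and TNFRSF9, which rose with Tpc + OL9-119, are shown, together with that of IL6, which held the motif while the gene stayed near 0 counts. Capitals mark the NF-kappa B matches and, in TNFRSF9, also the TGANTCA match.
TNFRSF9 (chr1:7940840-7941089, minus strand): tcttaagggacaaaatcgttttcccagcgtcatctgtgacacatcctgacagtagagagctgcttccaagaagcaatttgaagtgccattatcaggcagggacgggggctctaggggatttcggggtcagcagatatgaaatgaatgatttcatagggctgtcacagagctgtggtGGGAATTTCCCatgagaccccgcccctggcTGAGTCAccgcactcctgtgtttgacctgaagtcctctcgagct
CD83 (chr6:14117522-14117771, plus strand): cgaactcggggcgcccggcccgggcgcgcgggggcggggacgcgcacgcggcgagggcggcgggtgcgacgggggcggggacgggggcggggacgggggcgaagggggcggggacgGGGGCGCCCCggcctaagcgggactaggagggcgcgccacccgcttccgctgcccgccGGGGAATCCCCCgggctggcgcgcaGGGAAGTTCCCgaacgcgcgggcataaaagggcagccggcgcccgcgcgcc
ICAM1 (chr19:10270870-10271119, plus strand): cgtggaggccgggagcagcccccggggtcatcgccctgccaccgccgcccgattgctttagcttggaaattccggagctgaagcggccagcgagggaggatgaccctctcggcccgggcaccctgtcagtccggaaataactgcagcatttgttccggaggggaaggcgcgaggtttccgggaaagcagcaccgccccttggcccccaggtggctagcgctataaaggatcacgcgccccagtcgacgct
IL6 (chr7:22726950-22727199, plus strand): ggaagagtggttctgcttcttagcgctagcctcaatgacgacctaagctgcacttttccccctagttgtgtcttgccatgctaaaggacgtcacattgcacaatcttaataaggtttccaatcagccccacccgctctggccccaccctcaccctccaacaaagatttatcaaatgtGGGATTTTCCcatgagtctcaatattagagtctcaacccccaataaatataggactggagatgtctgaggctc
TNFRSF9 had 2 overlapping matches of the NF-kappa B motif that began at -74 and -73 from the start, and a TGANTCA match at -44. CD83 had 6 matches, partly overlapping, at the second of its 2 starts and none at the first. IL6 had 1 match at -73, and IL32 had 2 overlapping matches at -99 and -98 of the first of its 2 starts. No match of these letters lay in the windows of ICAM1, TNF, CSF2 or TRAF1. Kappa B sites that depart from these letters were not searched, so a window without a match can still hold one. Of the 27305 genes in the table, 11.8% held the NF-kappa B motif in at least 1 promoter of this length and 8.06% held TGANTCA. The 4 members with a match thus comprised 2 that rose with Tpc + OL9-119 and 2 that did not pass the test.

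Levels between genes were compared per kilobase of exon, as the mean CPM per kb of each group. In WT DMSO cells, IL32 and CD83 were the highest members, at 14.8 and 10.8 CPM per kb. LIF followed at 3.82, TNFRSF9 at 1.76 and ICAM1 at 1.74 CPM per kb. TNF, TRAF1 and CD69 were lower, at 0.706, 0.621 and 0.556 CPM per kb. With Tpc + OL9-119, CD83 reached 25.3, IL32 20.8, TNFRSF9 10.2, ICAM1 8.24 and CD69 6.73 CPM per kb in WT cells. CD69, the least abundant surface member with DMSO, thus passed LIF, which stood at 6.38 CPM per kb, although both groups had a wide spread in CPM.

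**Figure D1:**
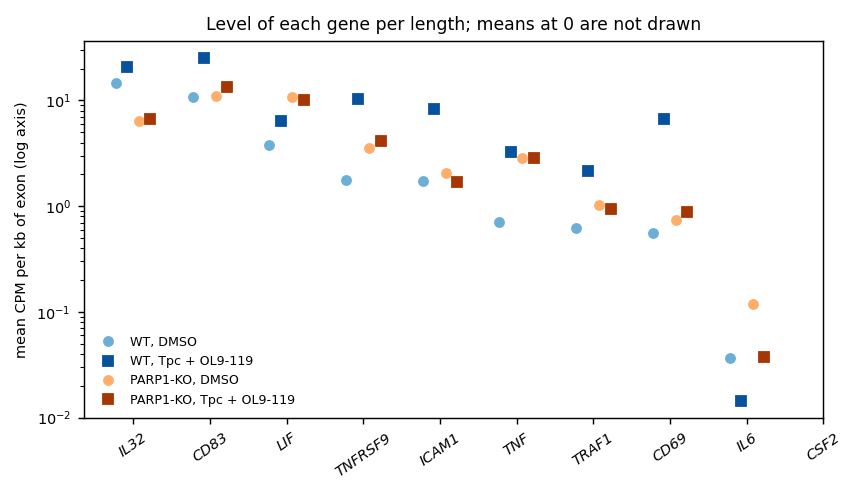
Mean level of each member in WT and PARP1-KO cells with DMSO and with Tpc + OL9-119, as CPM per kb of exon on a log axis; each point is a group mean of 4 libraries, and means at 0 are not drawn. IL32 and CD83 lie highest in the WT groups and IL6 and CSF2 lowest, and CD69 rises from 0.556 to 6.73 CPM per kb in WT cells.

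The surface proteins ICAM1, CD83 and TNFRSF9 rose in WT cells with Tpc + OL9-119. The surface protein CD69 is described without a test wherever WT DMSO or WT Tpc libraries enter, because it was selected on its rise over these DMSO libraries. CD69 is a lectin that marks early lymphocyte activation. It (ENSG00000110848) is encoded on chromosome 12 (9752486 to 9760901, minus strand, hg38). In WT DMSO libraries it stood at 0.426, 0.738, 4.20 and 0.939 CPM and in WT Tpc + OL9-119 libraries at 17.3, 28.9, 19.3 and 10.7 CPM. The lowest library of the combination thus lay above the highest DMSO library. The means were 1.57 ± 1.76 and 19.1 ± 7.53 CPM (SD, n = 4), a log2 fold change of 3.62 (SE 0.59). Without WT DMSO replicate 3 the change was 4.81 (SE 0.65) on the log2 scale.

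ICAM1, the adhesion protein to which leukocyte integrins bind, (ENSG00000090339) lies on chromosome 19 (10271093 to 10286615, plus strand). It was counted at 7.68, 9.39, 1.32 and 5.64 CPM with DMSO and at 27.4, 26.9, 34.6 and 24.7 CPM with the combination in WT cells. Every combination library exceeded the highest DMSO library. The log2 fold change was 2.23 (SE 0.33), with an adjusted p of 1.59e-06 in the quasi-likelihood test of edgeR. The genes LIMASI and ICAM4-AS1 overlap it on the opposite strand. Which strand was counted is not stated, and these genes held 42 and 52 counts against 4521 for ICAM1 over all libraries.

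CD83, an immunoglobulin-like protein of mature dendritic cells, (ENSG00000112149) lies on chromosome 6 (14117256 to 14136918, plus strand). It stood at 25.7, 32.7, 20.4 and 24.1 CPM with DMSO and at 54.5, 57.9, 64.0 and 64.8 CPM with Tpc + OL9-119. The groups were separate, and the change was 1.22 (SE 0.15) on the log2 scale, the smallest of the 4 surface proteins, with an adjusted p of 4.42e-08 by edgeR.

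TNFRSF9 (CD137), a costimulatory receptor of the TNF receptor superfamily that recruits TRAF1 and TRAF2, (ENSG00000049249) lies on chromosome 1 (7915871 to 7943165, minus strand). It was at 9.38, 14.03, 9.47 and 11.7 CPM with DMSO and at 64.4, 59.9, 67.0 and 68.9 CPM with the combination. The groups lay far apart and each was narrow. The log2 fold change was 2.55 (SE 0.20) and the adjusted p 1.89e-15 by edgeR.

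**Figure D2:**
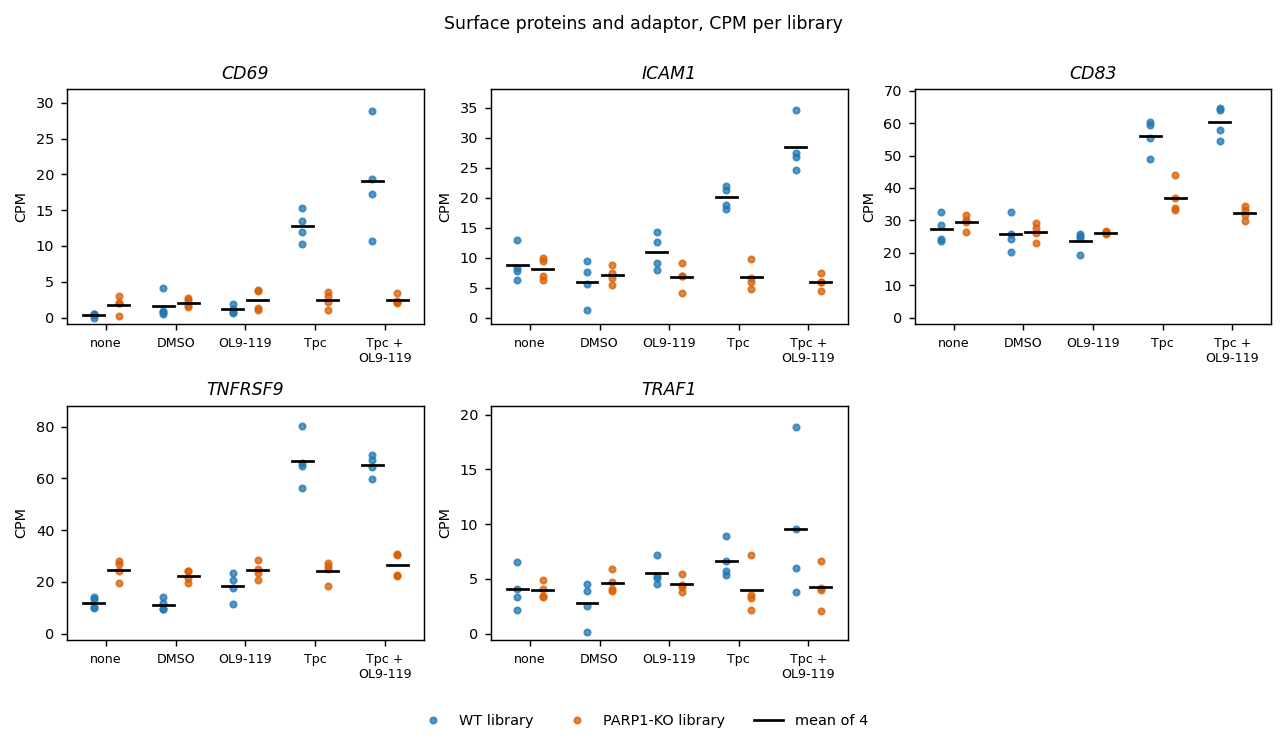
Level of the surface proteins and of TRAF1 in each library, in CPM, by treatment; points are libraries (WT and PARP1-KO) and lines are means of 4. For CD69, ICAM1, CD83 and TNFRSF9 the WT libraries with Tpc or Tpc + OL9-119 lie above all WT DMSO libraries, and the PARP1-KO libraries stay below the WT libraries under both treatments.

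None of the 4 secreted factors tested and not the adaptor passed the test in this comparison, and CSF2 was not tested. TNF, the ligand that activates NF-kappa B through its receptor TNFRSF1A (ENSG00000232810, chromosome 6, 31575565 to 31578336), stood at 0.355, 0.633, 3.60 and 0.157 CPM with DMSO. With Tpc + OL9-119 it stood at 1.84, 1.295, 8.59 and 10.2 CPM, so that the combination libraries themselves fell into a low and a high pair and overlapped the DMSO range. The low pair, replicates 1 and 2, also had fewer genes detected after thinning (16212 and 16304) than replicates 3 and 4 (19939 and 19715). A link between these values was not tested. The log2 fold change of TNF was 2.17 (SE 0.76, adjusted p = 0.0662 by edgeR). Without WT DMSO replicate 3 it was 3.71 (SE 0.86, adjusted p = 0.00381).

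LIF, a cytokine of the IL-6 family that signals through LIFR and IL6ST (ENSG00000128342, chromosome 22, 30240453 to 30246759), was at 13.1, 19.7, 13.7 and 12.7 CPM with DMSO and at 15.6, 25.3, 31.3 and 26.6 CPM with the combination. The groups overlapped in 1 library of each, and the log2 fold change of 0.73 (SE 0.19) had an adjusted p of 0.0118 in edgeR. It passed with DESeq2 (log2 fold change 0.71), and also without WT DMSO replicate 2 (0.90) and without WT Tpc + OL9-119 replicate 1 (0.91). IL32, a cytokine that induces other inflammatory cytokines (ENSG00000008517, chromosome 16, 3065297 to 3082192), was at 41.4, 46.7, 60.4 and 41.0 CPM with DMSO and at 55.2, 70.7, 73.7 and 67.5 CPM with the combination, a log2 fold change of 0.49 (SE 0.18, adjusted p = 0.0868 by edgeR).

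TRAF1, which links TNF receptor family members to BIRC2 and BIRC3 (ENSG00000056558, chromosome 9, 120902393 to 120929173), was at 4.55, 2.53, 0.120 and 3.91 CPM with DMSO and at 18.9, 3.78, 9.59 and 6.04 CPM with the combination. Replicate 1 of the combination stood above the other three, and the ranges overlapped. The log2 fold change was 1.79 (SE 0.50, adjusted p = 0.0173 by edgeR), and TRAF1 passed the test with DESeq2 and without WT Tpc + OL9-119 replicate 2.

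IL6 and CSF2 were near the limit of detection. IL6, a cytokine of the acute phase response (ENSG00000136244, chromosome 7, 22725884 to 22732002), had 14 counts in the 20 WT libraries, with a count in 5 of them, and 71 counts in the 20 PARP1-KO libraries, with a count in 16. CSF2, the granulocyte-macrophage colony-stimulating factor (ENSG00000164400, chromosome 5, 132073789 to 132076170), had 3 counts in WT and 1 in PARP1-KO libraries. A count of 0 allows up to 3 counts, which corresponds to 0.151 to 0.824 CPM depending on the library, so that no response of IL6 or CSF2 was detectable at this depth, and no fold change is given. This limit covers counting error only. IL6 is also overlapped on the opposite strand by STEAP1B, with 2791 counts, and LIF by LIF-AS2 and LIF-AS1, with 669 and 47 counts against 13146 for LIF.

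In all, 3 of the 8 members tested other than CD69 were called higher with Tpc + OL9-119 than with DMSO in WT cells at an adjusted p below 0.01, and none lower. Over all genes tested, 1.84% were called higher and 3.38% in either direction. The median log2 fold change was 1.51 over these 8 members and 0 over all genes. In CPM, 3 of the 9 members other than CD69 had combination libraries that all exceeded the DMSO libraries, against 3.56% of the genes tested. The library names carry 3 prefixes whose meaning the labels do not give. Within each prefix the difference of the mean log2(CPM + 0.5) between the combination and DMSO was 2.52 to 4.57 for CD69, 1.47 to 3.16 for ICAM1, 0.81 to 1.52 for CD83 and 2.06 to 2.72 for TNFRSF9. The 7 leukocyte markers, of cells that carry CD69, CD83 and TNFRSF9 when activated, summed to 2.43 to 5.63 CPM with DMSO and to 2.48 to 4.98 CPM with the combination, and none of them was called. The 8 HEK293 markers summed to 2022 to 2644 CPM with DMSO and to 1785 to 2008 CPM with the combination, without overlap, and KRT8 was the 1 of them called, lower by -0.44 (SE 0.11, adjusted p = 0.00569 by edgeR). The 4 endothelial markers summed to 4.23 to 5.97 CPM with DMSO and to 4.00 to 10.4 CPM with the combination, and SELE among them was called higher (adjusted p = 0.00148 by edgeR). The part of these markers in the rise of the members was not tested.

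With Tpc alone the values are given as a description, since the response of WT cells to Tpc was known when CD69 was listed. CD69 stood at 10.3, 15.4, 13.5 and 12.0 CPM, ICAM1 at 18.9, 22.0, 18.1 and 21.3 CPM, CD83 at 59.4, 49.1, 55.4 and 60.2 CPM, and TNFRSF9 at 56.1, 80.4, 66.1 and 64.9 CPM. All of these libraries exceeded the WT DMSO libraries, as did the Tpc libraries of 3.19% of the genes tested, and nothing is read from this. The log2 fold changes against DMSO were 3.04 for CD69, 1.72 for ICAM1, 1.12 for CD83 and 2.59 for TNFRSF9. Among the other members, TNF changed by 2.77, TRAF1 by 1.24, LIF by 0.80 and IL32 by 0.56 on the same scale. Without WT DMSO replicate 3 the changes of CD69 and TNF were 4.23 and 4.32. This comparison and that of the combination share the DMSO libraries.

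**Figure D3:**
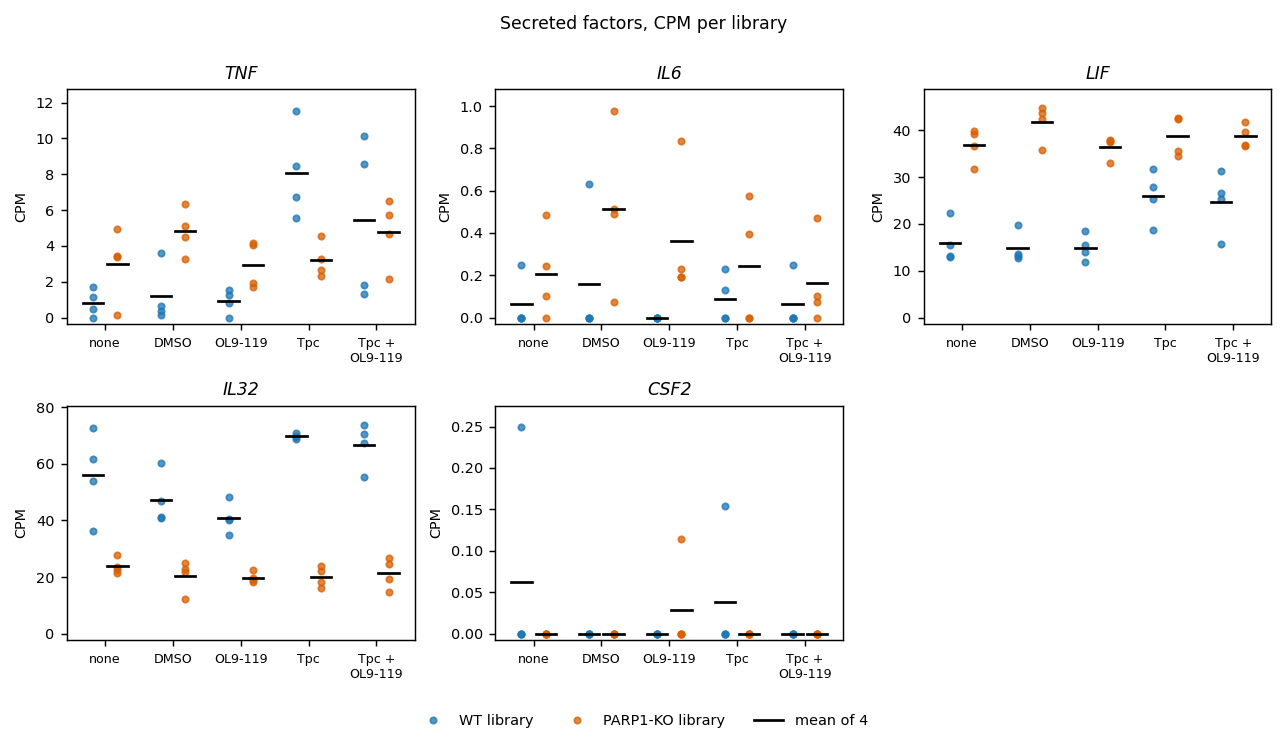
Level of the secreted factors in each library, in CPM, by treatment; points are libraries (WT and PARP1-KO) and lines are means of 4, with a separate axis for each gene. LIF lies higher and IL32 lower in PARP1-KO than in WT libraries under every treatment, while IL6 and CSF2 stay below 1 CPM.

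With OL9-119 added to Tpc, no member passed the threshold in WT cells. None of the 8 members tested other than CD69 was called by edgeR or DESeq2 between Tpc + OL9-119 and Tpc, none had an unadjusted p below 0.05, and 0.18% of all genes were called. ICAM1 was the member nearest to a difference, since its 4 combination libraries (24.7 to 34.6 CPM) all exceeded the Tpc libraries (18.1 to 22.0 CPM), against 1.88% of the genes tested. Its log2 difference was 0.50 (SE 0.31, adjusted p = 0.544 by edgeR). For CD83 the difference was 0.10 (SE 0.15) and for TNFRSF9 -0.04 (SE 0.18). For CD69 it was 0.58 (SE 0.52), given without a test because the Tpc libraries had a part in its choice.

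OL9-119 alone called no member in WT cells with edgeR, whereas 1.15% of all genes were called. TNFRSF9 was the closest, at 20.7, 11.6, 23.6 and 17.7 CPM against 9.38 to 14.03 CPM with DMSO. Replicate 2 lay within the DMSO range and the other three above it. The log2 fold change was 0.73 (SE 0.19, adjusted p = 0.0218 by edgeR). TNFRSF9 was called by DESeq2, by edgeR at a threshold of 0.05, and without WT DMSO replicate 2 (0.86) or WT OL9-119 replicate 2 (0.90). ICAM1 was at 12.7, 14.3, 9.12 and 7.99 CPM, a log2 fold change of 0.86 (SE 0.32, adjusted p = 0.147 by edgeR). TRAF1 changed by 0.98 (SE 0.50, adjusted p = 0.303), whereas CD83, LIF and IL32 differed from DMSO by -0.12, 0.02 and -0.21 on the log2 scale. Without WT DMSO replicate 3 the changes were 0.53 for ICAM1, 0.59 for TRAF1, -0.21 for CD83, -0.02 for LIF and -0.07 for IL32. At an unadjusted p below 0.05 there were 3 members, IL6, ICAM1 and TNFRSF9, and the IL6 value rests on 6 counts in a single DMSO library. WT DMSO replicate 3 set the sign for TNF and CD69, which changed by -0.34 and -0.43 with it and by 1.21 and 0.76 without it.

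On the log2 scale the combination in WT cells was also compared with the sum of the single responses. No member departed from that sum at the threshold with edgeR or DESeq2, and 0.00346% of all genes did with edgeR. TNFRSF9 was the 1 member with an unadjusted p below 0.05. Its combination response was 0.77 (SE 0.26) below the sum on the log2 scale, with an adjusted p of 0.313 by edgeR. The departure was -0.36 (SE 0.44) for ICAM1 and 0.22 (SE 0.22) for CD83, and -0.03 and 0.32 without WT DMSO replicate 3. It was -0.27 for TNF and 1.01 for CD69, and -1.82 and -0.18 without WT DMSO replicate 3.

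DMSO itself called no member against untreated WT cells, nor any of the 28922 genes, with edgeR (0.0%), although 3116 genes had an unadjusted p below 0.05 and DESeq2 called 9 genes. CD69 was at 0.440, 0.360, 0 and 0.4996 CPM without treatment, and its log2 fold change with DMSO was 2.21 (SE 0.68), a description. Without WT DMSO replicate 3 it was 1.02 (SE 0.71). The change of TNF was 0.43, and -1.11 without that library.

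**Figure D4:**
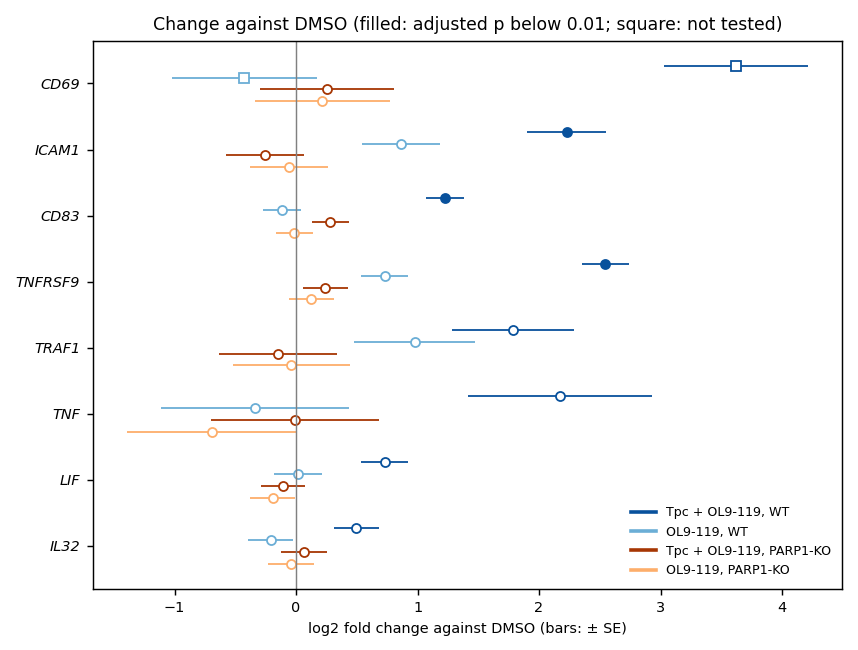
Log2 fold change against DMSO of 8 members for OL9-119 and for Tpc + OL9-119, in WT and in PARP1-KO cells; bars are ± SE of the edgeR fit, filled points have an adjusted p below 0.01, and the open squares of CD69 in WT cells carry no test. ICAM1, CD83 and TNFRSF9 are filled for Tpc + OL9-119 in WT cells, and no other point is filled.

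In PARP1-KO cells no member passed the test after any treatment. With Tpc + OL9-119 against DMSO, 0 of 9 members and 0.0% of all genes were called by edgeR, no member had an unadjusted p below 0.05 (834 genes did), and DESeq2 called 1 gene that was no member. The median log2 fold change of the members was -0.01. CD69 was at 2.20, 2.30, 3.49 and 2.05 CPM with the combination and at 1.74, 2.45, 2.74 and 1.43 CPM with DMSO, ranges that overlapped. ICAM1 was at 5.90, 7.36, 4.42 and 5.90 CPM against 6.56, 7.46, 8.71 and 5.49 CPM with DMSO. TNFRSF9 was at 22.5, 30.3, 22.2 and 30.8 CPM against 24.3, 21.6, 24.3 and 19.6 CPM, again overlapping.

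CD83 was the member with the clearest shift in PARP1-KO cells. Its libraries stood at 44.1, 33.8, 33.1 and 36.8 CPM with Tpc and at 29.9, 31.7, 34.3 and 33.1 CPM with Tpc + OL9-119, against 29.2, 27.6, 26.1 and 23.1 CPM with DMSO. Both groups lay wholly above DMSO, as did 1.01% of genes with Tpc and 1.1% with the combination. The log2 fold changes were 0.48 (SE 0.15) and 0.28 (SE 0.15), with unadjusted p-values of 0.00259 and 0.0698 and adjusted p-values of 1.0 by edgeR. CD83 was the 1 member with an unadjusted p below 0.05 for Tpc, where 1101 genes had such a p and neither edgeR (0.0%) nor DESeq2 called any gene. OL9-119 alone (0.00346% of all genes called by edgeR) and DMSO alone (0.0%) gave 0 called members in PARP1-KO cells with both tools and 0 members with an unadjusted p below 0.05. The same held for Tpc + OL9-119 against Tpc (0.0%).

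Of the members, LIF, TNFRSF9 and IL32 differed between the genotypes both without treatment and with DMSO. LIF was higher in PARP1-KO cells, at 31.7, 39.8, 36.7 and 39.3 CPM without treatment against 15.6, 13.1, 22.4 and 12.9 CPM in WT cells. With DMSO it was at 44.8, 43.7, 35.8 and 42.6 CPM in PARP1-KO cells. All PARP1-KO libraries exceeded all WT libraries. The log2 fold change was 1.21 (SE 0.19, adjusted p = 1.71e-06 by edgeR) without treatment and 1.49 (SE 0.19, adjusted p = 1.56e-08) with DMSO.

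TNFRSF9 was also higher in the knockout, at 24.2, 19.5, 26.9 and 28.2 CPM against 13.5, 14.04, 9.88 and 10.2 CPM without treatment, a log2 fold change of 1.04 (SE 0.19, adjusted p = 2.5e-05 by edgeR). With DMSO it was 1.01 (SE 0.19, adjusted p = 4.84e-05). IL32 was lower, at 27.8, 23.6, 22.4 and 21.6 CPM in PARP1-KO cells against 61.6, 54.0, 72.8 and 36.2 CPM in WT cells without treatment. Its log2 fold change was -1.24 (SE 0.19, adjusted p = 6.51e-07 by edgeR) without treatment and -1.21 (SE 0.19, adjusted p = 1.13e-06) with DMSO. For LIF, TNFRSF9 and IL32 the groups did not overlap under either control condition. Of all genes tested, 11.3% lay wholly higher and 8.37% wholly lower in PARP1-KO cells without treatment, and 12.3% and 7.76% with DMSO. The direction was the same within each name prefix that held both genotypes.

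CD69 was called higher in PARP1-KO cells without treatment, at 0.157, 2.01, 2.00 and 2.99 CPM against 0 to 0.4996 CPM in WT cells, a log2 fold change of 2.47 (SE 0.66, adjusted p = 0.00442 by edgeR). The groups overlapped through PARP1-KO replicate 1. Under the alternatives tried its adjusted p ranged from 0.00113 to 0.156, and the call was lost without any 1 of PARP1-KO replicates 2, 3 or 4 (2.43, 2.43 and 2.15) and without WT replicate 2 or 3 (2.54 and 2.09). With DMSO the difference was 0.44 (SE 0.57), and 1.63 (SE 0.62) without WT DMSO replicate 3, both descriptions. TNF was at 4.51, 3.27, 6.36 and 5.11 CPM in PARP1-KO cells with DMSO, a log2 difference of 2.02 (SE 0.75, adjusted p = 0.0471 by edgeR), which became 3.57 (adjusted p = 0.00133) without WT DMSO replicate 3. ICAM1 and CD83 differed between the genotypes by 0.22 (SE 0.32) and 0.04 (SE 0.15) with DMSO, and by -0.11 and -0.05 without WT DMSO replicate 3.

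In all, 3 members were called higher and 1 lower in PARP1-KO than in WT cells without treatment, and 2 higher and 1 lower with DMSO. The shares over all genes were 5.97% higher and 5.74% lower without treatment, and 6.67% higher and 5.75% lower with DMSO. The median log2 fold change over all genes was 0.17 and 0.19. Markers of other cell types moved with the genotype at a low level. The 7 leukocyte markers summed to 0.533 to 8.73 CPM in WT and to 4.600 to 10.9 CPM in PARP1-KO libraries, and CD14 was the 1 of them that was called higher in PARP1-KO cells with DMSO. Of the 8 HEK293 markers, 5 were called lower and 1 higher in PARP1-KO cells with DMSO. The 4 endothelial markers, SELE among them, summed to 1.32 to 10.4 CPM over the libraries. The part of these markers in the difference of the members was not tested.

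**Figure D5:**
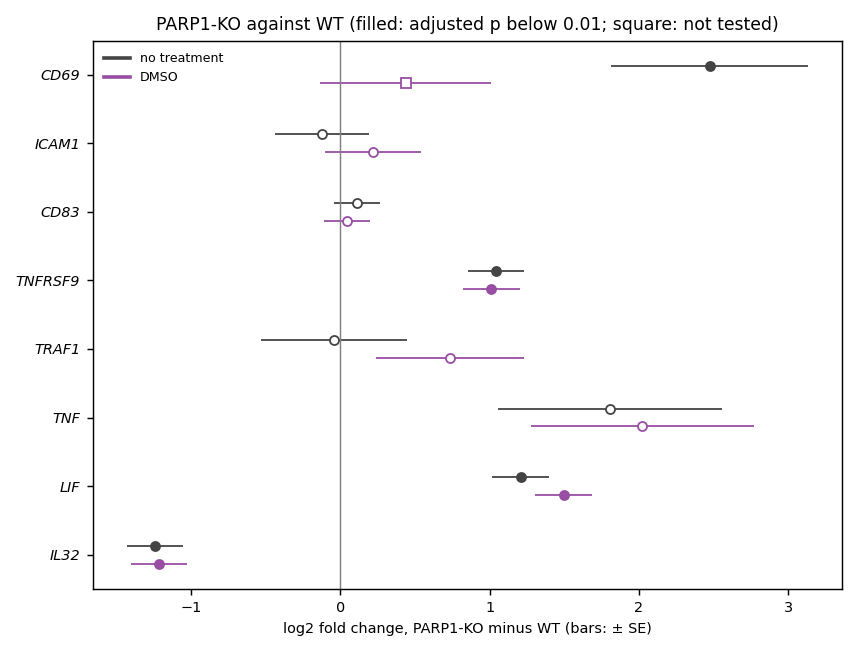
Log2 fold change of 8 members in PARP1-KO against WT cells without treatment and with DMSO; bars are ± SE of the edgeR fit, filled points have an adjusted p below 0.01, and the open square of CD69 with DMSO carries no test. LIF and TNFRSF9 lie above 0 and IL32 below 0 in both conditions, and CD69 is filled without treatment.

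The responses themselves were compared between the genotypes. The response to Tpc + OL9-119 was smaller in PARP1-KO than in WT cells for ICAM1, by -2.48 (SE 0.45) on the log2 scale with an adjusted p of 0.000519, and for TNFRSF9, by -2.31 (SE 0.27) with an adjusted p of 9.07e-09, both by edgeR. CD83 had a difference of -0.94 (SE 0.22, adjusted p = 0.012 by edgeR), which passed with DESeq2 but not with edgeR. The difference of CD69 was -3.37 (SE 0.80), and -4.56 (SE 0.80) without WT DMSO replicate 3, as a description. In all, 2 of the 8 members tested other than CD69 were called, both lower, against 0.311% of all genes called lower. For Tpc alone the differences are given as a description, since they contain the response of WT cells to Tpc. TNFRSF9 differed by -2.47 (SE 0.27) and ICAM1 by -1.78 (SE 0.45). TNF differed by -3.37 (SE 1.02) for Tpc, and by -4.91 (SE 1.06) without WT DMSO replicate 3. For the combination the difference of TNF was -2.18 (adjusted p = 0.35 by edgeR), and -3.72 (adjusted p = 0.0849) without that library. CD69 differed by -2.81 (SE 0.79) for Tpc, and by -4.00 (SE 0.79) without it, a description. For OL9-119, used at the same dose in both genotypes, no member was called by edgeR or DESeq2 (0.1% of all genes by edgeR), and 2 members, ICAM1 and TNFRSF9, had an unadjusted p below 0.05. Without WT DMSO replicate 3 this difference moved from -0.36 to -1.90 for TNF and from 0.64 to -0.55 for CD69.

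Under Tpc + OL9-119 the PARP1-KO libraries of ICAM1, CD83, TNFRSF9 and IL32 all lay below the WT libraries, 4 of the 9 members other than CD69 against 7.29% of the genes tested. LIF was the 1 member that lay wholly above, against 10.9%. With Tpc alone the lower members were these 4 and TNF, against 9.3% of the genes. CD69 also lay wholly below under both treatments, a description. Of the genes, 10.5% lay wholly above with Tpc. With OL9-119, LIF, TNF and IL6 lay wholly above, against 12.7%, and IL32 wholly below, against 10.9%. IL6 was there at 0 CPM in WT and at most 0.834 CPM in PARP1-KO libraries, near the limit of detection, so nothing is read from it. LIF was thus higher in PARP1-KO cells under all 5 treatments, whereas TNFRSF9 was higher in PARP1-KO cells without a drug and lower under Tpc. TNFRSF9 moved between 9.38 and 80.4 CPM in WT but between 18.5 and 30.8 CPM in PARP1-KO cells.

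The receptors, ligands and adaptors that work with the members formed a list of 15 genes, all tested. This list and those below were chosen with earlier results of these data known. With Tpc + OL9-119 in WT cells the median log2 fold change of the list was -0.07, and none of it was called lower. In this comparison 3 of the 15 were called higher, against 1.84% of all genes. They were BIRC3 (1.99, SE 0.27, adjusted p = 1.64e-07 by edgeR) and BIRC2 (0.84, SE 0.14), ubiquitin ligases bound by TRAF1 and TRAF2, and IL6ST (0.82, SE 0.19), the signal chain shared by IL6 and LIF. In PARP1-KO against WT cells with DMSO, TNFRSF1A, the main receptor of TNF, was the 1 gene of the list that was called. It was lower (-0.52, SE 0.12), as were 5.75% of all genes.

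Among 17 genes of the NF-kappa B machinery, 7 were called higher with Tpc + OL9-119 in WT cells and none lower, against 1.84% of all genes higher. The median of the 17 was 0.77. The largest changes were those of the feedback inhibitors TNFAIP3 (4.02, SE 0.20) and NFKBIA (2.35, SE 0.13), followed by the subunit RELB (2.17, SE 0.19), by NFKBIZ (1.45, SE 0.33), and by NFKB2 (1.295, SE 0.16) and NFKB1 (1.15, SE 0.17), which encode subunit precursors. CYLD, a deubiquitinase that restrains the pathway, changed by 0.69 (SE 0.16). OL9-119 alone called 3 of the 17 in WT cells, TNFAIP3, NFKBIA and RELB, all higher, against 0.488% of all genes higher. In PARP1-KO against WT cells with DMSO, 7 of the 17 were higher, with TNFAIP3 at 2.28 (SE 0.19) and RELB at 1.42 (SE 0.19), and NFKB1 was lower at -0.61 (SE 0.17). Of all genes, 6.67% were higher and 5.75% lower in this comparison. The response to the combination was smaller in PARP1-KO cells for 5 of the 17, against 0.311% of all genes called lower.

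Of 22 further known targets that were tested, 11 were called higher with Tpc + OL9-119 in WT cells and none lower, against 1.84% of all genes higher. The median log2 fold change of the 22 was 2.04. The neutrophil-attracting chemokines led, with CXCL8 rising from 15.3 ± 5.73 to 357 ± 69.7 CPM (SD, n = 4), a log2 fold change of 4.54 (SE 0.20), and CXCL1, CXCL2 and CXCL3 changing by 5.59, 6.13 and 4.28. CXCL10 changed by 6.53, CCL20 by 4.28 and IER3 by 2.21. SELE, the endothelial selectin, was at 0 in all 4 WT DMSO libraries and at 3.51 ± 1.21 CPM with the combination. In PARP1-KO against WT cells with DMSO, 7 of the 22 were higher and none lower, against 6.67% of all genes higher. Among these 7 were PTGS2 at 3.03 (SE 0.70) and CXCL2 at 3.99 (SE 0.80).

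Over the 10 group means of log2(CPM + 0.5), the genes most like CD69 were CXCL8 (Pearson's r = 0.982), SERTAD2, ING3, NFKB2 and ZC3H12C, out of 17745 genes that reached 1 CPM in the mean of a group. The genes most like ICAM1 were RNF207 (0.969), PLAU, BIRC3, COX19 and SELE. For the mean of the 9 members they were CXCL8 (0.990), CCL20, CXCL1, NFKB2 and NFKBIA. By Spearman's rank correlation the leading genes were TICRR for CD69, NKX3-2 for ICAM1 and TNFAIP3 for the mean of the members. Among the members, the profile of CD69 had an r of 0.952 with TNFRSF9, 0.915 with CD83 and 0.781 with ICAM1, but 0.237 with LIF and 0.374 with IL32, and LIF and IL32 had an r of -0.752 with each other. These are descriptions over 10 points that share libraries, and they carry no test.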

How the data were processed

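RNA of 40 samples was sequenced as directional poly(A) libraries of 100 bp paired reads. The authors used STAR 2.7.8 for alignment (hg38) and counting, and deposited raw counts per Ensembl gene, not normalised. Which strand was counted is not given in the sources used here. Counts ranged from 3455043 to 20379777 per library, which limits the precision of genes near 0.

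From the counts, genes with a sum of at least 10 were tested with the quasi-likelihood test of edgeR 4.0.16 (TMM scaling, legacy = TRUE, all 40 libraries in 1 fit, p-values adjusted by Benjamini-Hochberg over all genes tested, threshold 0.01). DESeq2 1.42.0, other filters and settings, untreated cells as control, a replicate block and leaving out each library were alternatives. Symbols came from GENCODE 44. In a simulation of Tpc + OL9-119 against DMSO in WT cells on 28087 genes, 88 of 100 genes changed 4-fold and 58 of 100 changed 2-fold were called, with 2 unchanged genes called. The changed genes were drawn only from genes with a higher mean count over all libraries. These shares therefore do not carry over to members with few counts, such as IL6, or CD69 and TNF in WT DMSO cells.

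The members and the gene lists were chosen with earlier results of these data known. Of each list, up to 8 genes past the threshold with the largest change and a mean of at least 1 CPM in a group compared could be named, and for CD69, ICAM1 and the mean of the members the 5 genes with the most similar group means. The change of the members with Tpc in WT cells and its difference between the genotypes are given without a test. The same holds for CD69 wherever WT DMSO or WT Tpc libraries enter.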

Additional observations from a re-analysis of the deposited data

Results flagged for a closer look

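In 8 of the 89 groups of 4 libraries of the members that could be examined, 1 library lay far from the other three by Dixon's criterion (the gap to its neighbour as a share of the range), where chance flags about 1 in 20 groups. With DMSO in WT cells, replicate 3 stood at 4.20 CPM for CD69 and at 3.60 CPM for TNF, and replicate 2 at 19.7 CPM for LIF and at 0.633 CPM for IL6. The other groups of IL6 were WT without treatment, with 0.2498 CPM in replicate 4, WT Tpc + OL9-119, with 0.249 CPM in replicate 3, and PARP1-KO OL9-119, with 0.834 CPM in replicate 1. In PARP1-KO OL9-119 cells, LIF was at 32.95 CPM in replicate 3, below the other libraries. The IL6 values rest on few counts.

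The response to Tpc + OL9-119 differed between the genotypes by the test of the difference itself for ICAM1 (-2.48 on the log2 scale, PARP1-KO minus WT) and for TNFRSF9 (-2.31). For TNFRSF9 with Tpc the difference was -2.47, a description. The WT groups received Tpc at 100 nM and the PARP1-KO groups at 50 nM, so that genotype and dose cannot be told apart here.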

How the results depend on the processing

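No change of a member that was called turned its direction under any alternative. Of the recomputed changes of single members, 2603 kept their direction and side of the threshold, 35 passed it, 8 fell below it and 20 that were not called moved. These counts and the numbers of members called that follow include CD69, and serve to compare settings, not as tests of it. The number called moved by over 1.5 times for OL9-119 in WT cells and for the difference of the Tpc + OL9-119 responses. For OL9-119 in WT cells it was 0, but 1 with DESeq2 and at a threshold of 0.05, and 0 to 1 when single libraries were left out. For the difference of the Tpc + OL9-119 responses it was 2, but 4 with DESeq2, at a threshold of 0.05 and with untreated cells as control, 3 without a filter, with filterByExpr, with legacy = FALSE and with only the groups compared, and 2 to 3 when single libraries were left out. Counts for Tpc in WT cells and for the difference of the Tpc responses are left out, since these changes are given without a test. By smaller steps, the number called was 4 for Tpc + OL9-119 in WT cells and 5 to 6 under some alternatives. It was 4 between the untreated genotypes and 3 to 4, and 3 between the genotypes with DMSO and 3 to 4. With untreated cells as control, ICAM1 with Tpc in WT cells changed by 1.19 in place of 1.72 on the log2 scale. CD69 in untreated PARP1-KO against WT cells was not called with legacy = FALSE (2.58) or with only the groups compared in the fit (2.43). The cause of these changes was not tested.

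Over all genes tested, edgeR and DESeq2 called 1.15% and 1.93% for OL9-119 in WT cells, 0.18% and 0.318% for Tpc + OL9-119 against Tpc, and 0.432%, 0.173% and 0.1% against 0.726%, 0.273% and 0.166% for the differences of the Tpc + OL9-119, Tpc and OL9-119 responses. With only the groups compared in the fit, 1.36% in place of 3.38% were called for Tpc + OL9-119 in WT cells, 0.398% in place of 0.985% for Tpc, 0.328% in place of 1.15% for OL9-119, 2061 in place of 3592 genes between the genotypes with DMSO, and 5 to 18 genes in PARP1-KO cells after a drug. Without a filter the median of all genes between the genotypes with DMSO shifted by -0.19 on the log2 scale, and with filterByExpr by -0.15. Another scaling of the libraries (RLE) shifted no median by over 0.1.

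Libraries with the same replicate number were on average only slightly more alike within a genotype than those with different numbers. Libraries of 1 genotype with the same number had a mean correlation of their deviations from the group means of 0.0359 in WT (-0.161 to 0.329) and of 0.0586 in PARP1-KO cells (-0.129 to 0.336). With different numbers the means were -0.00351 in WT and -0.0162 in PARP1-KO cells. Libraries of different genotypes with the same number had a mean of -0.00663. With the replicate block 4 members, CD69 included, were called for Tpc + OL9-119 in WT cells and 2 for the difference of these responses, as without it, and no count of members called changed.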
